A study of Mus musculus with 8 samples.

Results

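The genes described here were 3 forkhead factors of the FOXP family (*Foxp3*, *Foxp1* and *Foxp4*), 3 of the FOXO family (*Foxo1*, *Foxo3* and *Foxo4*), and 3 genes known as targets of FOXO factors in T cells (*Klf2*, *S1pr1* and *Il7r*). They were taken by their symbols, and were 9 of the 13704 genes listed with reads in at least 1 of the RNA-seq libraries. All 9 were listed in both libraries.

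The study asked what TRIM28, a co-repressor and chromatin regulator, does in Th17 cells, the IL-17-producing class of helper T cells. For RNA-seq, Th17 cells were grown from naive CD4+ T cells of C57BL/6 mice, which were either wild type (WT) or TRIM28fl/flxCD4cre (KO), in which Cre driven by the *Cd4* promoter removes the loxP-flanked *Trim28* alleles in T cells. For 3 days both cultures received TGF-β at 0.5 ng/ml and IL-6 at 20 ng/ml, and the cells were restimulated with anti-CD3. Each genotype had 1 library, so no difference given here has a replicate check, and a test on reads compares the libraries and not the genotypes.

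Forkhead factors share a DNA-binding domain of the winged-helix type. FOXO factors are held in the cytoplasm when AKT, acting below the T cell receptor and growth-factor receptors, phosphorylates them, and 14-3-3 proteins then bind them. In resting T cells FOXO1 enters the nucleus and drives *Il7r*, the receptor chain for the survival cytokine IL-7, and *Klf2*, a zinc-finger factor that in turn drives *S1pr1*, the receptor with which T cells leave lymph nodes. FOXP3 is the lineage factor of regulatory T cells (Treg cells), and FOXP1 keeps naive T cells quiescent.

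The table of the WT library summed to 6650066 reads over 13078 genes, and that of the KO library to 6185108 over 12754 genes. *Trim28*, on chromosome 7 of GRCm38 from 13024152 to 13031032, was covered by 4485 WT and 180 KO reads, which gives a log2 fold change of -4.53 (KO/WT, exact 95% interval -4.76 to -4.32). Fold changes compared read counts scaled to the library totals with 0.5 added to each count, and an exact binomial test was run on the 10881 genes whose reads summed to 10 or more. A gene is said to have fallen or risen, or to be called, where its adjusted p was under 0.05 and its fold change reached 2. Longer transcripts had lower fold changes (Spearman's rho -0.37 across tested genes, which are not independent replicates), so a value corrected with a loess curve against transcript length is given beside the uncorrected one. All intervals cover counting error only. T cell markers summed to 4911 CPM (the reads of a gene scaled to the library total) in the WT and 4252 CPM in the KO library. In the same order B cell markers summed to 12.5 and 7.11 CPM, CD8 T cell markers to 7.97 and 4.69 CPM, and myeloid markers to 3.31 and 3.56 CPM. Natural killer and erythroid markers had no read, nor had the myeloid markers *Lyz2*, *Csf1r* and *Adgre1*. Th17 markers summed to 2538 CPM (WT) and 604 CPM (KO), and 6 of the 8 fell (*Maf*, *Il21*, *Il17f*, *Il17a*, *Ahr* and *Rora*).

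Of the 9 genes, *Foxp3* was left out of the test for its few reads, and 2 of the 8 tested genes, *Foxo3* and *Foxp4*, fell, while over all tested genes 5.53% fell. None of the 8 rose, and 2.57% of all tested genes did. At an adjusted p under 0.05 and any size of change, 5 of the 8 were lower in the KO library (*Foxp4*, *Foxo1*, *Foxo3*, *S1pr1* and *Il7r*) and 0 were higher, against 22.4% lower and 21.4% higher over all tested genes. Whether a small change passes depends on the number of reads of the gene. The 8 were not matched to the other tested genes by reads or by transcript length. The median log2 fold change of the 8 was -0.57, or -0.33 with length correction, and that of all tested genes was -0.02. With length correction *Foxp4* was the 1 gene still called. Where variation between cultures was assumed in an exact test with edgeR, *Foxp4* lost its call at a coefficient of 0.1 and *Foxo3* at 0.2. In bulk RNA, fewer cells that express a gene and less of its RNA per cell cannot be told apart.

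**Figure D1:**
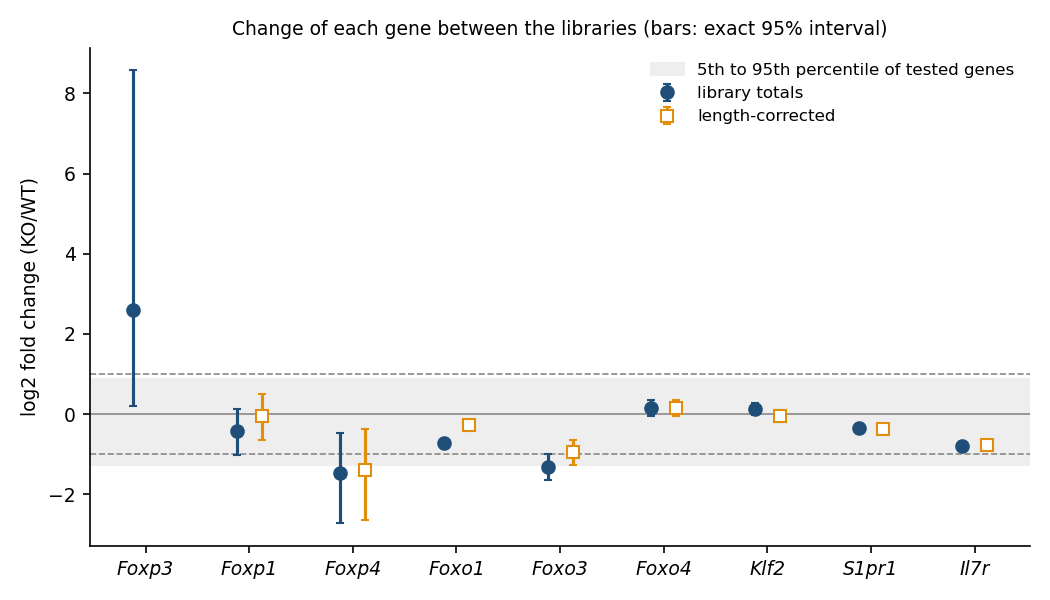
Log2 fold change (KO/WT) of the 9 genes on the vertical axis, from library totals (filled circles) and with length correction (open squares), with exact 95% intervals as bars; the grey band spans the 5th to 95th percentile of tested genes (-1.28 to 0.87) and dashed lines mark 2-fold. *Foxp4* and *Foxo3* lie below the lower dashed line before correction, and *Foxp3*, which was not tested, has the widest interval.

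Promoters of the genes whose values are most often set against each other below are shown first, as the 300 bases around the start that RefSeq gives on GRCm38.p6, most of them before it. *Il7r* and *Klf2* are shown because their values moved apart between the libraries, and *Foxp3* because it was the member with the fewest reads. Capitals mark CG dinucleotides, the sites of DNA methylation, which read the same on both strands. *Il7r* lies at chr15:9529827-9530126 on the minus strand, *Klf2* at chr8:72318812-72319111 on the plus strand, and the first of the *Foxp3* starts at chrX:7579426-7579725 on the plus strand.
Il7r: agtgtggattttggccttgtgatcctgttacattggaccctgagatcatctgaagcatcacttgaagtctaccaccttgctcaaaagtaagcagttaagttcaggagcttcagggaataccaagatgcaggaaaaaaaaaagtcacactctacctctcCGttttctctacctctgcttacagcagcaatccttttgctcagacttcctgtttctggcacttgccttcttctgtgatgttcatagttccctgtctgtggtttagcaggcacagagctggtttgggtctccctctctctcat
Klf2: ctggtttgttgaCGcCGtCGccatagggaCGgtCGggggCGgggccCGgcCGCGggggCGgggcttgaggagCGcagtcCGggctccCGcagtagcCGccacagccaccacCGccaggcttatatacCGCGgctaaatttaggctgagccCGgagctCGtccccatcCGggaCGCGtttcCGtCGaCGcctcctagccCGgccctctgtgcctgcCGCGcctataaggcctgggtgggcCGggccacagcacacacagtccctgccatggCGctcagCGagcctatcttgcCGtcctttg
Foxp3: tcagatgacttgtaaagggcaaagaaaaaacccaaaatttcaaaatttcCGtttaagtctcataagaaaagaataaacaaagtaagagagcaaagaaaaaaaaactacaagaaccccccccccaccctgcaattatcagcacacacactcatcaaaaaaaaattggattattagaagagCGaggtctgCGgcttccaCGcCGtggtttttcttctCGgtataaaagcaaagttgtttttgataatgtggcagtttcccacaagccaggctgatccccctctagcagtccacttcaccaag

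The *Il7r* promoter held 1 CG dinucleotide, the *Klf2* promoter 32 and the *Foxp3* promoter 6, and the median of all promoters of this length was 7. The promoters of *Foxp4* and *Foxo3*, which fell, held 33 and 35, and that of *Foxo1*, lower by less than 2-fold, held 31. Those of *Foxp1* held 13, 5 and 44, and the second of *Foxp3* held 8. A link between CG content and the changes was not tested. G and C made up 45.7% of the *Il7r*, 69.3% of the *Klf2* and 40.7% of the *Foxp3* promoter, against a median of 52.7%. The forkhead core motif GTAAACA, searched on both strands (TGTTTAC on the other, with no overlap between them), was in 0 of the 10 promoters found for 7 of the 9 genes, and in 3.65% of all 32851 promoters. This says only that those letters are not in these windows.

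The 9 genes spanned a wide range of levels. Levels between genes were compared as RPKM (CPM divided by the length, in kilobases, of the longest GENCODE M21 transcript), with exact Poisson 95% intervals. In the WT library the order from the highest was *S1pr1* (79.2 RPKM), *Il7r* (68.5), *Klf2* (65.5), *Foxo1* (43.5), *Foxo4* (20.4), *Foxo3* (6.76), *Foxp1* (1.40), *Foxp4* (1.17) and *Foxp3* (0.0392). The intervals of *Il7r* and *Klf2* overlapped, as did those of *Foxp1* and *Foxp4*, and the other neighbours were apart. In the KO library the order was *Klf2* (71.6 RPKM), *S1pr1* (61.9), *Il7r* (39.1), *Foxo1* (26.5), *Foxo4* (22.7), *Foxo3* (2.72), *Foxp1* (1.04), *Foxp4* (0.404) and *Foxp3* (0.337). There only *Foxp4* and *Foxp3* overlapped among neighbours. The 3 FOXP genes were the lowest of the 9 in both libraries, and *Klf2* was below *S1pr1* in the WT and above it in the KO library. These levels depend on the length taken for a gene. RefSeq gives 5552 exonic bases for *Foxo1* where the longest GENCODE transcript has 8665, and with RefSeq lengths *Foxo1* was at 68.0 and *Klf2* at 66.7 RPKM in the WT library. With the median GENCODE transcript length of each gene, *Foxp1* was at 7.46, *Foxp4* at 2.36, *Foxo3* at 18.3, *Foxo4* at 48.0 and *Il7r* at 95.8 RPKM in the WT library. *Il7r* then stood above *S1pr1*, and *Foxo4* above *Foxo1*, while the FOXP genes were still the lowest. In the KO library the same lengths put *Foxp1* at 5.51, *Foxp4* at 0.820, *Foxp3* at 0.684, *Foxo3* at 7.34, *Foxo4* at 53.4 and *Il7r* at 54.6 RPKM.

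**Figure D2:**
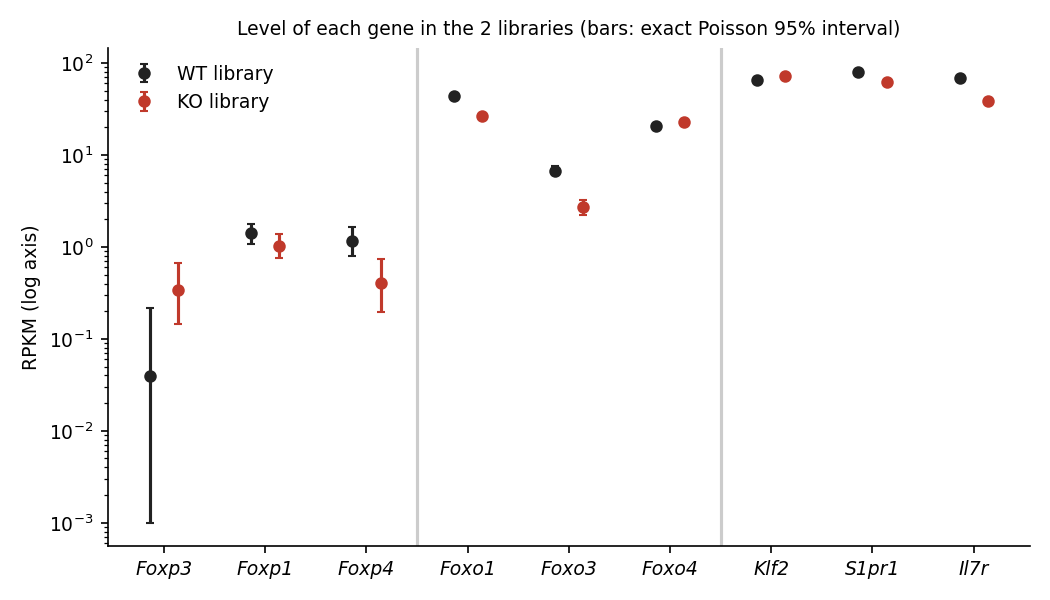
RPKM of the 9 genes (vertical log axis) in the WT library (black) and the KO library (red), with exact Poisson 95% intervals as bars and grey lines between the FOXP, FOXO and target genes. With the longest transcript as the length, the FOXP genes lie at or below 1.40 RPKM and the targets at or above 39.1 RPKM in both libraries; with the median transcript length *Foxp1* would be at 7.46 (WT) and 5.51 (KO).

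*Foxp3*, on chromosome X from 7579676 to 7595243 on the plus strand, had 1 read in the WT and 8 in the KO library. In CPM this was 0.150 and 1.29. A level of 3 reads, the smallest taken as shown, is 0.451 CPM in the WT and 0.485 CPM in the KO library, so the gene was under that floor in the WT library and over it in the KO library. The log2 fold change was 2.61, with an exact 95% interval from 0.21 to 8.58. *Foxp3* made up 1.01% of the reads of the 3 FOXP genes in the WT library (exact 95% interval 0.0256 to 5.5) and 12.5% in the KO library (5.55 to 23.2). It was the 1 member with a value above 1 on the log2 scale, and that value rests on 9 reads in all. Apart from these reads, the paper reports higher *Foxp3* mRNA by real-time PCR and higher protein by intracellular staining in KO Th17 cells.

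*Foxp4*, which is related to *Foxp1* and is expressed in T cells, lies on chromosome 17 from 47867133 to 47924632 on the minus strand. It had 31 reads in the WT and 10 in the KO library, and fell by 1.48 on the log2 scale (exact 95% interval -2.72 to -0.46, adjusted p = 0.00766 by the exact binomial test). With length correction the value was -1.40, and the call held. *Foxp1*, on chromosome 6 from 98925342 to 99522746 on the minus strand, spans 597405 bases, the longest of the 9 loci. Its reads were 67 and 46, and its log2 fold change was -0.43 (-1.01 to 0.12, adjusted p = 0.224 by the exact binomial test), and -0.06 with length correction (-0.64 to 0.50). These intervals include both no change and, for the uncorrected value, a 2-fold reduction. The ratio of *Foxp1* to *Foxp4* reads was 2.16 in the WT and 4.60 in the KO library, and the interval of the change in this ratio, 0.903-fold to 5.34-fold, includes 1. The CPM of *Foxp1* (10.1 and 7.44) was near the sum of the B cell markers, and that sum was also lower in the KO library (*Cd79b*, with 15 and 2 reads, fell). The part of such cells in the FOXP values was not tested.

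The low read numbers of the FOXP genes stood beside a property of the tables. Genes with more curated RefSeq transcripts had lower levels: the median in the WT library was 12.7 RPKM for tested genes with 1 transcript, 6.13 with 2, 4.71 with 3, 4.62 with 4 and 3.37 with 5 or more. *Foxp3* and *Foxp4* have 3 curated transcripts and *Foxp1* has 4. *Foxo3* and *Il7r* have 2, and the other 4 members have 1. Reads that fit several transcripts may be counted or dropped, and the rule used is not given in the sources used here. The bases that lie in only 1 curated transcript numbered 163 for *Foxp3*, 36 for *Foxp4* and 697 for *Foxp1*. They numbered 4 for *Foxo3*, which had 308 reads in the WT library, and 17 for *Il7r*, which had 1613. Genes with 2 or more curated transcripts were put in 5 classes by the share of exonic bases in only 1 of them. From the lowest to the highest class the median was 5.44, 4.01, 5.08, 4.98 and 6.70 RPKM. The counting rule and its part in the FOXP read numbers were not tested.

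**Figure D3:**
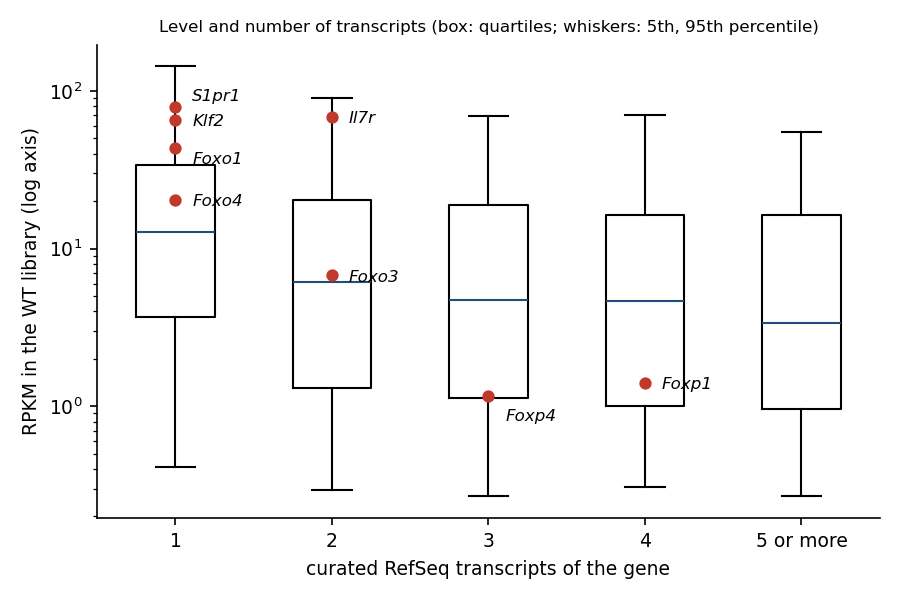
RPKM in the WT library (vertical log axis) of tested genes by their number of curated RefSeq transcripts, as boxes of the quartiles with whiskers to the 5th and 95th percentiles; red points are the 8 tested members. The box medians go from 12.7 RPKM for 1 transcript to 3.37 for 5 or more, and *Foxp4* and *Foxp1* lie under the medians of their boxes.

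Among the FOXO genes, *Foxo3* fell, *Foxo1* was lower by less than 2-fold, and *Foxo4* had an interval that included 0. *Foxo3*, on chromosome 10 from 42181845 to 42276695 on the minus strand, had 308 reads in the WT and 115 in the KO library. It fell by 1.31 on the log2 scale (exact 95% interval -1.64 to -1.003), which is a reduction of 2.48-fold, with an adjusted p of 2.5e-17 by the exact binomial test. With length correction the value was -0.96 (-1.28 to -0.65), under the 2-fold limit.

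*Foxo1*, the main FOXO factor of T cells, lies on chromosome 3 from 52268337 to 52350109 on the plus strand. It had 2509 reads in the WT and 1421 in the KO library, or 377 and 230 CPM. The log2 fold change was -0.72 (exact 95% interval -0.81 to -0.62). *Foxo1* was the FOXO gene with the most reads in both libraries, and its interval lay apart from both 0 and a 2-fold change. Its transcript falls in length decile 10, the longest of tested genes, whose median log2 fold change was -0.44. With length correction its value was -0.28 (-0.38 to -0.19), and with RefSeq lengths in place of GENCODE lengths it was -0.42. The size of the *Foxo1* difference thus depended on the length correction, while its sign did not.

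*Foxo4*, on chromosome X from 101254261 to 101260873 on the plus strand, had 429 and 444 reads. The log2 fold change was 0.15 (exact 95% interval -0.04 to 0.35, adjusted p = 0.207 by the exact binomial test) and was 0.14 with length correction. The interval thus runs from a small decrease to an increase of less than 2-fold. Of 333 tested genes on chromosome X, 26 fell (7.81%) and 6 rose (1.80%), with a median of -0.14. Over all tested genes 5.53% fell and 2.57% rose. *Foxo4* lay above the median of its chromosome, and *Foxp3*, the other X-linked member, was not tested for its few reads. Of the sex-linked genes, *Xist* was not listed, and the Y-linked genes had reads in both libraries. *Uty* (256 and 107 reads) fell by 1.15 on the log2 scale, and *Ddx3y* (730 and 456 reads, -0.57), *Kdm5d* (374 and 209 reads, -0.73) and *Eif2s3y* (377 and 459 reads, 0.39) were not called.

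Ratios of reads within a library do not depend on how the libraries were scaled, and showed how the FOXO genes moved against each other. *Foxo1* made up 77.3% of FOXO reads in the WT library (exact 95% interval 75.8 to 78.7) and 71.8% in the KO library (69.7 to 73.7). *Foxo3* made up 9.49% (8.50 to 10.6) and 5.81% (4.82 to 6.93). *Foxo4* made up 13.2% (12.1 to 14.4) and 22.4% (20.6 to 24.3). None of the 3 pairs of intervals overlapped, so the makeup of the FOXO reads differed between the libraries by more than counting error. The ratio of *Foxo1* to *Foxo4* reads was 5.85 in the WT and 3.20 in the KO library, a 0.547-fold change (95% interval 0.471 to 0.636). The ratio of *Foxo3* to *Foxo4* went from 0.718 to 0.259, a 0.361-fold change (0.278 to 0.467). *Foxo1* against *Foxo3* went from 8.15 to 12.4, a 1.52-fold change (1.21 to 1.92). These ratios still hold the different lengths of the genes, and *Foxo4* has the shortest transcript of the 3 (3162 bases, against 6848 for *Foxo3* and 8665 for *Foxo1*).

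**Figure D4:**
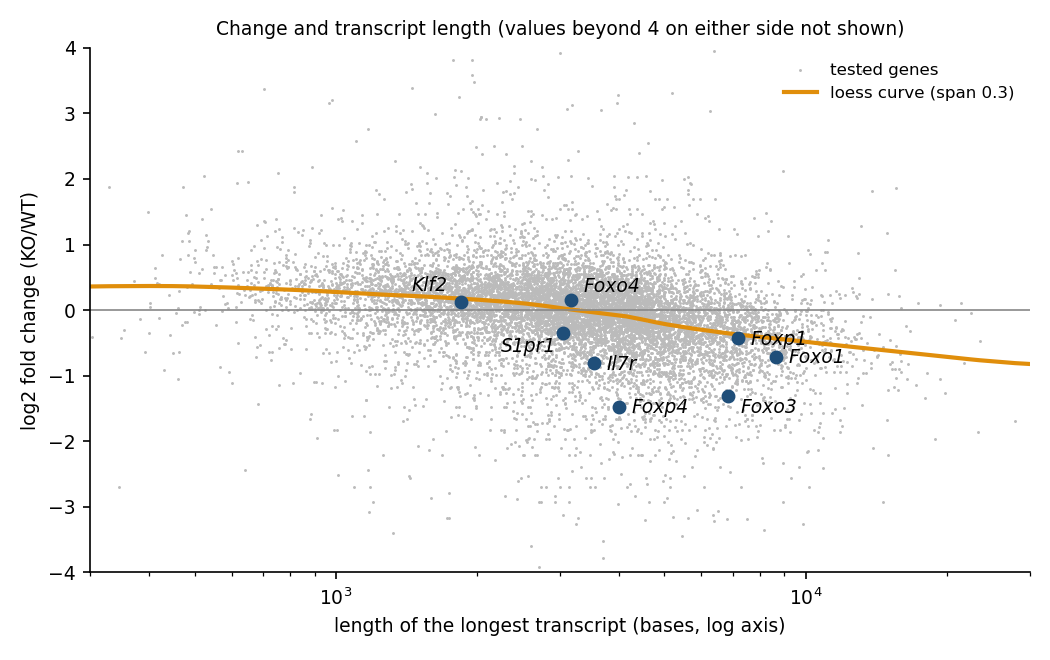
Log2 fold change (KO/WT, vertical axis) of tested genes against the length of the longest transcript (bases, log axis), with the loess curve of span 0.3 and the 8 tested members in blue. The curve is at 0.17 at the length of *Klf2* and at -0.43 at that of *Foxo1*; *Il7r*, *Foxp4* and *Foxo3* lie well below it.

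The 3 target genes had the most reads per length among the members when the longest transcript was taken as the length, and their values did not move together. *Il7r*, on chromosome 15 from 9506159 to 9529941 on the minus strand, had 1613 reads in the WT and 855 in the KO library, or 243 and 138 CPM. The log2 fold change was -0.81 (exact 95% interval -0.93 to -0.69), a reduction of 1.75-fold with an adjusted p of 2.55e-40 by the exact binomial test, and was -0.78 with length correction. This was under the 2-fold limit, so *Il7r* was not called. Of all tested genes, 11.9% had a lower value.

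*S1pr1*, on chromosome 3 from 115710433 to 115715055 on the minus strand, had 1604 and 1166 reads. Its log2 fold change was -0.36 (exact 95% interval -0.47 to -0.25, adjusted p = 1.1e-09 by the exact binomial test) and -0.38 with length correction. *Klf2*, on chromosome 8 from 72319062 to 72321654 on the plus strand, had 805 and 818 reads. Its log2 fold change was 0.13 (exact 95% interval -0.01 to 0.27, adjusted p = 0.146 by the exact binomial test), and was -0.05 with length correction (-0.19 to 0.10). The sign for *Klf2* thus changed with the correction, and both intervals included 0. A lower value by the test was thus seen for *S1pr1* and not for *Klf2*, the factor known to drive it.

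Within each library, *Klf2* had 0.499 reads per *Il7r* read in the WT and 0.957 in the KO library, a 1.92-fold change (95% interval 1.68 to 2.18). The ratio of *Klf2* to *S1pr1* went from 0.502 to 0.702, a 1.40-fold change (1.23 to 1.58), and that of *S1pr1* to *Il7r* from 0.994 to 1.36, a 1.37-fold change (1.22 to 1.54). The 3 targets thus differed from each other in their change by more than counting error. *Foxo1* against *Il7r* was 1.56 in the WT and 1.66 in the KO library, and the interval of its change, 0.960-fold to 1.19-fold, includes 1. Their transcripts differ in length (8665 and 3540 bases), and with length correction *Foxo1* was at -0.28 (-0.38 to -0.19) and *Il7r* at -0.78 (-0.90 to -0.66), which do not overlap. *Foxo4* against *Klf2* was 0.533 and 0.543, with an interval of 0.861-fold to 1.21-fold. These were among 36 pairs of members compared, and the intervals were not adjusted for that number.

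The genes around the members were described by lists, each with its counts and its median. Over all tested genes the median was -0.02, 5.53% fell and 2.57% rose. Of 18 other forkhead genes 11 were tested, 3 fell (27.3%) and 0 rose, with a median of -0.25 (-0.17 with length correction). *Foxn3*, a transcriptional repressor of the family, had 444 reads in the WT and 136 in the KO library and fell by 1.60 on the log2 scale (exact 95% interval -1.89 to -1.32). *Foxf2*, known from mesenchymal development, had 104 and 23 reads and fell by 2.05. *Foxq1*, known from epithelial cells, had 33 and 11 reads and fell by 1.44. All 3 calls held with length correction. The other 8 tested forkhead genes were not called.

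For the FOXO regulators, which hold kinases, phosphatases, 14-3-3 proteins, an exportin and enzymes that acetylate, methylate or ubiquitinate FOXO proteins or undo such marks, 26 of 27 were tested and 0 were called in either direction, with a median of -0.19 (-0.06 with length correction). The 3 with the most reads were 14-3-3 genes. *Ywhae* had 5758 reads in the WT and 6470 in the KO library (log2 fold change 0.27), *Ywhah* 5074 and 5318 (0.17), and *Ywhab* 2622 and 2559 (0.07). Each of them was under 2-fold. Of 33 other known FOXO targets 31 were tested, 0 fell and 1 rose (3.23%), with a median of -0.27 (-0.18 with length correction). The gene that rose was *Tnfsf10*, the death ligand TRAIL, which had 47 WT and 110 KO reads, or 1.32 on the log2 scale (exact 95% interval 0.83 to 1.86), and it was called with length correction too.

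On the side of the targets, the S1P axis (receptors, enzymes and coupled G proteins of sphingosine-1-phosphate) had 11 of 16 genes tested and 0 called, with a median of -0.34 (-0.22 with length correction). The G protein gene *Gnai2* had 9798 reads in the WT and 12684 in the KO library (log2 fold change 0.48), and *Gnai3* had 2127 and 1647 (-0.26). *S1pr4*, another S1P receptor of lymphocytes, had 1187 and 1379 reads (0.32), where *S1pr1* was at -0.36. Of 15 genes of IL-7 receptor signalling 14 were tested, 1 fell (7.14%) and 0 rose, with a median of -0.25 (-0.06 with length correction). The 1 was *Gabpb1*, which encodes a subunit of GABP, a factor that binds the *Il7r* promoter. *Gabpb1* had 24 WT and 8 KO reads, or -1.42 on the log2 scale. With length correction its value was -1.33, still past 2-fold, and its adjusted p was over 0.05. Of 13 other KLF genes 12 were tested and 1 fell (8.33%), with a median of -0.14. This was *Klf7* (137 and 55 reads), which fell by 1.20 on the log2 scale and was not called with length correction (-0.81).

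Around *Foxp3*, 26 of 30 regulators and partners were tested, 4 fell (15.4%) and 0 rose, with a median of -0.28 (-0.09 with length correction). *Smad3*, which carries the TGF-β signal, had 1319 reads in the WT and 594 in the KO library and fell by 1.05 on the log2 scale. *Satb1*, a chromatin organizer, had 274 and 94 reads and fell by 1.43. *Rel*, an NF-κB subunit (193 and 85 reads), and *Nfatc2*, a factor downstream of calcium signals (88 and 32 reads), fell by 1.07 and 1.34. Only *Satb1* was still called with length correction (-1.12), and the other 3 were then under 2-fold (*Smad3* -0.82, *Rel* -0.69 and *Nfatc2* -0.99). Of 28 Treg genes 26 were tested, 3 fell (11.5%) and 0 rose, with a median of -0.11 (-0.12 with length correction). The study itself names some of them from these libraries, and those are thus no independent evidence. *Il10*, the suppressive cytokine, had 26 and 0 reads, at least 8.06-fold lower in the KO library against a floor of 3 reads there. *Entpd1*, the ectonucleotidase CD39, had 30 and 4 reads and fell by 2.66, and *Plagl1*, a zinc-finger factor, had 56 and 25 reads and fell by 1.04, a call lost with length correction (-0.81). At any size of change, 22.4% of all tested genes were lower and 21.4% higher (adjusted p under 0.05, exact binomial test). Of the 26 Treg genes, 9 were lower and 6 higher by this measure. The highest value of the Treg genes was that of *Nrp1* (135 and 235 reads), at 0.90 and at 0.95 with length correction. It was named after its values were seen, like the next ones. *Izumo1r* was at 0.59, *Lag3* at 0.55 and *Tnfrsf18* at 0.43, all under 2-fold. On the lower side, *Il2ra*, the Treg gene with the most reads (12320 and 8925), was at -0.36. *Gpr83* was at -0.57, *Nt5e* at -0.51, *Socs2* at -0.48 and *Icos* at -0.22, also under 2-fold. *Dusp4*, at -0.94, was called lower with length correction (-1.01).

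**Figure D5:**
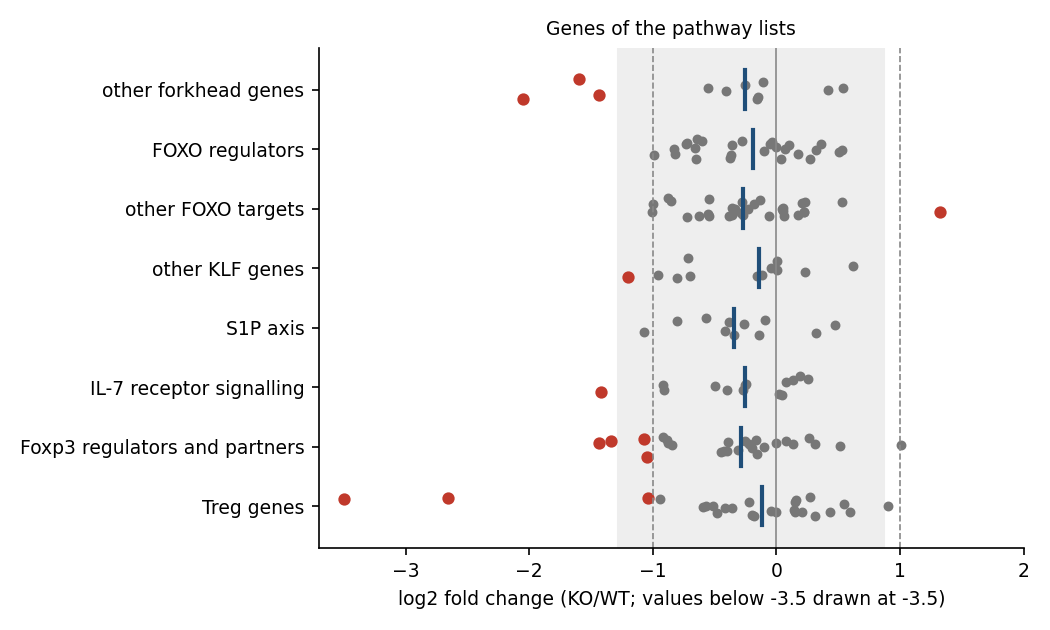
Log2 fold change (KO/WT, horizontal axis) of the tested genes of 8 lists, 1 point a gene, with called genes in red, medians as blue bars, 2-fold as dashed lines and the 5th to 95th percentile of all tested genes as a grey band. The medians lie between -0.34 and -0.11, and 1 of the red points, *Tnfsf10*, lies above 0.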

How the data were processed

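Th17 RNA-seq libraries of WT and KO cells (1 each) were used. The authors deposited counts of uniquely assigned reads per gene for each library, not normalized, and a gene absent from a table was given 0 reads. The paper names SOAP2 and mm10, the submitters' processing notes also name Bowtie and HTSeq without a role, and the counting rule is not given in the sources used here. ChIP-seq samples were not analysed here.

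Gene positions came from RefSeq (GRCm38.p6), transcript lengths from GENCODE M21. Of 13704 gene names, 13050 matched a symbol, 602 an older symbol and 52 none. A length was found for 99.2% of tested genes. Log2 fold changes used 0.5 added to each count, scaled to library totals. For genes whose reads summed to 10 or more, an exact binomial test (two-sided) with Benjamini-Hochberg adjustment was run in SciPy 1.17.1, and Clopper-Pearson intervals were given. The quasi-likelihood test of edgeR needs replicates and could not be run. Loess used statsmodels 0.14.6 (span 0.3). Alternatives used edgeR 4.0.16 and DESeq2 1.42.0 (R 4.3.3). The calculations were tested on simulated data.

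The members and lists were chosen with earlier results of these data known. The rule for names was the 9 members, *Trim28*, the sex-linked genes, and of each list the called genes (at most 6, by reads) or, with none called, the 3 with the most reads. Where the labels name no separate animals, p-values measure only the counting spread between the libraries.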

Additional observations from a re-analysis of the deposited data

How the results depend on the processing

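With 1 library per genotype no library could be left out. No paired analysis was possible because the groups share fewer than 2 replicate numbers. The number of members that fell, 2 in the main test, was 1 with length correction (*Foxp4*), 1 with RefSeq exonic bases in that correction (chosen after seeing the data), 1 with the exact test of edgeR at an assumed coefficient of variation of 0.1 (*Foxo3*), 0 at 0.2 and 0 at 0.4, and 4 at a limit of 1.5-fold (*Foxo1* and *Il7r* added). The number that rose, 0 in the main test, was 1 among genes with at least 1 CPM in a library (*Foxp3*). *Foxp3* passed this filter only through the KO library (1.29 CPM, against 0.150 CPM in the WT library). This call is therefore not independent of the difference itself. Among genes with at least 1 read *Foxp3* was not called (adjusted p = 0.0517 by the exact binomial test). Over all genes, 602 fell and 280 rose. These became 131 and 65 at an assumed variation of 0.2, 9 and 7 at 0.4, and 1248 and 764 at 1.5-fold. Of 106 fold changes of members under alternatives, 94 kept their sign and their side of the call, 7 lost a call, 3 gained one and 2 changed sign. Both sign changes were *Klf2*, at -0.05 with either length correction (-0.0471 with GENCODE lengths and -0.0498 with RefSeq lengths). The edgeR settings, the limits on reads or CPM and the 1.5-fold limit leave the fold change itself the same by design. Only the call could differ there, so the 94 overstate how far the signs were tried. TMM, DESeq2 size factors, upper-quartile scaling, 5 added to each count and GC correction changed no call of a member. Depth limits the FOXP genes most, none of which had more than 67 reads in a library.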
